A study of Mus musculus with 2 samples.

Results

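Mir28a, Mir28c, Mir151 and Mir708 are 4 related miRNA genes of the mouse, and their levels were read from small RNA libraries of the adrenal gland. They were picked out by gene symbol, through the Ensembl identifiers of GENCODE M21, and all 4 were found among the 2202 miRNA genes counted in each library. The family was chosen with earlier results of these data known. The libraries form a single group of 2 replicates of adrenal tissue from C57BL/6J mice, wild type and male according to a free-text label, although the sex field says "not collected". Age and stage are unknown, no treatment is named, and the same donor record stands behind both replicates, so the spread between them may be technical. With no other tissue, genotype or condition, the data give levels and the distance between 2 libraries, and no contrast of conditions.

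A miRNA is cut from a hairpin precursor, each strand of which can yield a mature form of about the length of a small RNA read, called the 5p and the 3p arm. Bases 2 to 8 of the mature form, the seed, do most of the pairing with target messenger RNAs, so miRNAs that share a seed are expected to share targets. The hairpins of this family are known to descend from LINE-2 transposable elements, and its members are intronic miRNAs, which can be transcribed with a host gene. Host transcripts were not measured here. MiR-151 is known in human liver cancer cells for acting with the product of its host, the focal adhesion kinase, in cell migration, and miR-708 is known in human breast cancer cells for repressing the transcript of neuronatin.

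The mature sequences show how the members are related, and they matter for the counts, since only reads placed at a single locus were counted. RefSeq sequences on GRCm38.p6 were matched for Mir28a and Mir708, and for Mir28b, which is no member but carries the family name. Mir151 and Mir28c had no entry there, so their mature forms entered none of the comparisons of arms and seeds below. Capitals mark the seed.
mmu-miR-28a-5p: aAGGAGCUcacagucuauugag
mmu-miR-708-5p: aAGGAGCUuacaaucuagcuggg
mmu-miR-28b: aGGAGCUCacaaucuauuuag
mmu-miR-28a-3p: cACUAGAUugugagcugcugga
mmu-miR-708-3p: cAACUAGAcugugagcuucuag

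MiR-28a-5p and miR-708-5p had the same seed, AGGAGCU, and among 1738 mature mouse miRNAs of the RefSeq table these 2 were the only ones with it. The 7 letters occurred anywhere in the mature form, on its own strand, in 9 of the 1738 (0.518%). As Mir151 and Mir28c were not among the 1738, these counts do not show whether their mature forms hold the letters. Aligned without gaps from their first bases, miR-708-5p matched miR-28a-5p at 16 of 22 positions. Counted from the 5′ end of miR-28a-5p, with its base first, the differences were C9U, G13A, U18G, U19C, G20U and A21G, so all 6 lay outside the seed. MiR-28b began a base later in the same alignment, which gave it the seed GGAGCUC, and it differed from miR-28a-5p at 2 of 21 positions, G13A and G20U. The 3p arms matched at 17 of 21 positions when miR-708-3p was shifted by a base, so their seeds, AACUAGA for miR-708-3p and ACUAGAU for miR-28a-3p, differed, and no other mature form of the table had either as its seed.

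The likeness extended to other loci, and this limits what the counts of 3 members can show. Mir28a shares a run of 20 nt with Mir28c on the same strand, which covers bases 2 to 21 of miR-28a-5p. Mir708 shares a run of 23 nt with Gm23134, another annotated miRNA gene, which covers bases 2 to 23 of the 23 bases of miR-708-5p. Reads from such a stretch can fall to the multimapping class, which enters no gene, so the levels of Mir28a, Mir28c and Mir708 are uncertain and may leave out part of their 5p reads. That class held 38.8% of mapped reads in replicate 2 and 37.8% in replicate 1, over all loci together. The hairpin of Mir151 shares at most 17 nt with another member, Mir28c, and no stretch of 20 nt with any other counted hairpin. The tables count reads per hairpin, so 5p and 3p reads were not separated.

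**Figure D1:**
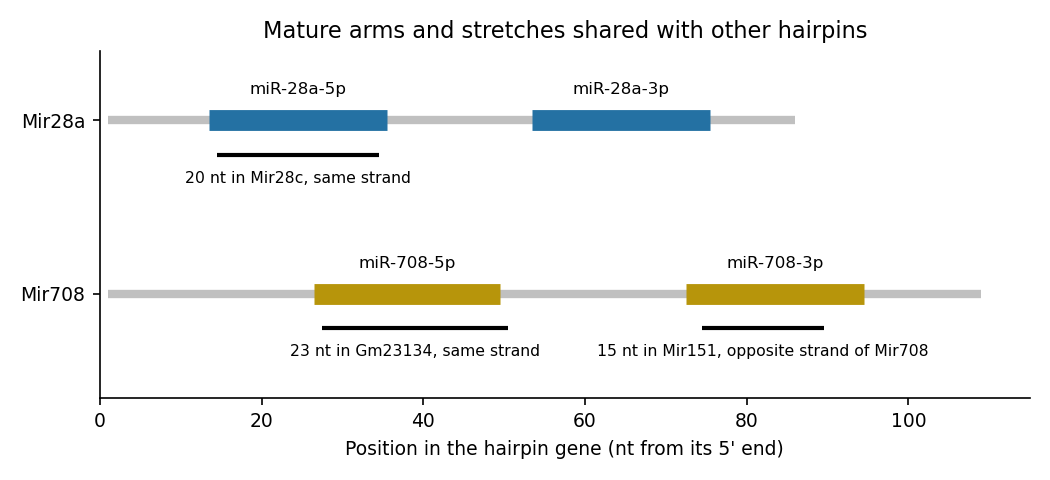
Positions along the Mir28a (86 nt) and Mir708 (109 nt) hairpin genes, counted in nt from the 5′ end, with the mature arms as coloured bars and the runs shared with other hairpins as black lines. The run of 20 nt in Mir28c and the run of 23 nt in Gm23134 lie over the 5p arms, while the 3p arm of Mir708 holds 15 nt whose complement is found in Mir151.

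Gm23134 (ENSMUSG00000077990.1) lies on mm10 chromosome 2 from 157562361 to 157562447 on the minus strand, within Blcap and opposite Nnat, the gene of neuronatin. Exons of 4 Nnat transcripts span the whole of that hairpin on the plus strand, and in 3 protein-coding ones the annotation makes it UTR. The strand of Nnat therefore holds, in that UTR, the complement of bases 2 to 23 of miR-708-5p. This is a match of letters, and binding was not measured here. Gm23134 had 0 counts on its own strand in replicate 2 and 0 in replicate 1, and 3 and 0 on the strand of Nnat. These counts set no limit on reads from the shared stretch, which can fall to the multimapping class.

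Each of the 4 members lay in an intron of a protein-coding gene on the same strand, in every annotated transcript of the host that spans it. Mir151 (ENSMUSG00000065612.1) lies on mm10 chromosome 15 from 73254815 to 73254882, minus strand, in an intron of Ptk2, which encodes focal adhesion kinase. That intron is 14556 nt long in the shortest form annotated, and a noncoding antisense gene, 1700085D07Rik, spans the locus on the other strand. Mir28a (ENSMUSG00000065494.1) lies on chromosome 16 from 24827855 to 24827940, plus strand, in an intron of 82814 nt of Lpp, whose LIM domain protein sits at focal adhesions. Mir708 (ENSMUSG00000076143.1) lies on chromosome 7 from 96249424 to 96249532, plus strand, in intron 1 of Tenm4, which encodes a teneurin of the cell surface. In the principal transcript this intron is 143365 nt long. Mir28c (ENSMUSG00000104794.1) lies on chromosome 15 from 53614205 to 53614279, minus strand, in an intron of 196133 nt of Samd12.

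Reads on the strand of a miRNA gene numbered 3525666 in replicate 2 and 10263894 in replicate 1, which were 33.2% and 49.8% of all reads. The libraries also differed in their unmapped share, 41.4% in replicate 2 against 13.8% in replicate 1. Levels below are these counts scaled to a library total of 1000000 (CPM). Detection required both replicates to reach 10 CPM, which 267 of the 2202 genes did. Endothelial Mir126a, the smooth muscle genes Mir143 and Mir145a and the neuroendocrine genes Mir375 and Mir7b were all detected, while the muscle genes Mir206, Mir133b and Mir499 summed to 4.82 CPM in replicate 2 and 3.60 CPM in replicate 1. Endothelial Mir126a had 95595 CPM in replicate 2 and 89916 in replicate 1. The smooth muscle genes summed to 26619 and 25619 CPM, and the neuroendocrine genes to 79601 and 72765 CPM. The red blood cell genes Mir451a and Mir144 summed to 1804 CPM in replicate 2 and 8357 in replicate 1. The leukocyte genes Mir142, Mir150 and Mir223 ran the other way, with 876 CPM in replicate 2 and 508 in replicate 1, while the liver gene Mir122 had 97.6 and 104 CPM. The part of these cell types, and of the difference in unmapped reads, in the results below was not tested. In whole tissue, fewer cells of a type and less RNA per cell cannot be told apart.

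The family took 0.632% of assigned counts in replicate 2 (22295 counts) and 0.818% in replicate 1 (83958 counts), a mean of 0.725% ± 0.131 (SD, n = 2). The Wilson 95% intervals ran from 0.624% to 0.641% in replicate 2 and from 0.813% to 0.824% in replicate 1. They do not overlap, and they cover counting error only. Even that may be understated, since copies of a molecule cannot be told from separate molecules. The 4 genes differed widely. Mir151 made up 83.0% of the family's counts in replicate 2 and 78.7% in replicate 1, Mir28a made up 16.6% and 20.8%, and Mir708 and Mir28c together were under 1% in both.

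Mir151 was the leading member. It had 18495 counts in replicate 2 and 66081 in replicate 1, or 5246 CPM and 6438 CPM, a mean of 5842 ± 843 CPM (SD, n = 2). It ranked 31st of all miRNA genes in replicate 2 and 27th in replicate 1. The ranks next to it by mean level were held by Mir21a (5944 ± 1034 CPM) and Mir125a (5753 ± 1758 CPM). Neighbours in rank are picked for a like level, so a difference within the spread between replicates is no finding.

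Mir28a came second in the family. It had 3698 counts in replicate 2 and 17487 in replicate 1, or 1049 CPM and 1704 CPM, a mean of 1376 ± 463 CPM. It ranked 61st in replicate 2 and 50th in replicate 1. Its relative spread, an SD of 33.6% of the mean, was the widest of the 4, against 14.4% for Mir151 and 19.6% for Mir708. The neighbours in rank, again picked by level and within the spread, were Mir409 (1383 ± 177 CPM) and Mir433 (1325 ± 280 CPM).

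Mir708 was present at a low level. It had 100 counts in replicate 2 and 385 in replicate 1, or 28.4 CPM and 37.5 CPM, a mean of 32.9 ± 6.47 CPM. The Wilson interval ran from 23.3 to 34.5 CPM in replicate 2 and from 33.9 to 41.4 CPM in replicate 1, so both values stand above the detection threshold and the intervals just overlap. It ranked 229th and 224th. By mean level its neighbours in rank, within the spread by that choice, were Mir29b-1 (33.2 ± 8.85 CPM) and Mir32 (32.7 ± 4.97 CPM).

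Mir28c was near the floor of the assay. It had 2 counts in replicate 2 and 5 in replicate 1, or 0.567 CPM and 0.487 CPM, with Wilson intervals from 0.156 to 2.07 CPM and from 0.208 to 1.14 CPM. Mir28b was alike in this, with 2 counts in replicate 2 and 7 in replicate 1. The limit that a count of 0 allows, 3 counts, equals 0.851 CPM for replicate 2 and 0.292 for replicate 1. Mir28c was therefore counted but not detected by the 10 CPM rule, and 3 of the 4 members were.

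**Figure D2:**
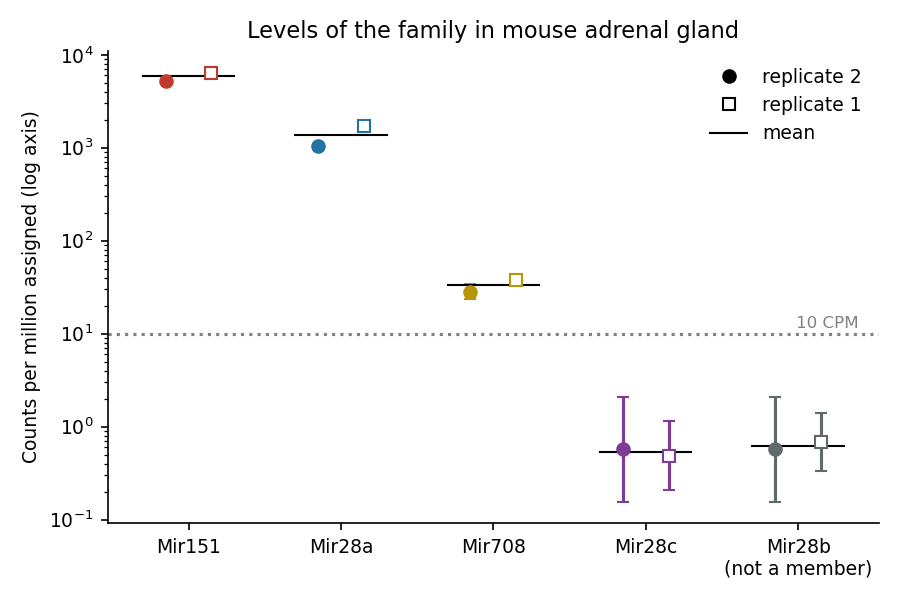
Level of each gene in CPM on a log axis, with filled circles for replicate 2, open squares for replicate 1, Wilson 95% intervals of counting error as bars and the mean as a line. Mir151 lies between 5246 and 6438 CPM, Mir28a between 1049 and 1704 CPM and Mir708 between 28.4 and 37.5 CPM, and Mir28c lies below 1 CPM, as does Mir28b, which is no member.

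Ratios between members inside a library do not depend on how the libraries are scaled. Mir151 had 5.00 times the counts of Mir28a in replicate 2 (exact 95% interval from 4.83 to 5.18) and 3.78 times in replicate 1 (from 3.72 to 3.84). These intervals do not overlap, so the balance of these 2 members differed between the libraries beyond counting error. Mir151 had 185 times the counts of Mir708 in replicate 2 (from 152 to 227) and 172 times in replicate 1 (from 155 to 190), and there the intervals overlap. Mir28a had 37.0 times the counts of Mir708 in replicate 2 (from 30.3 to 45.6) and 45.4 times in replicate 1 (from 41.1 to 50.4). Mir708 had 50.0 times the counts of Mir28c in replicate 2 (from 13.5 to 419) and 77.0 times in replicate 1 (from 32.7 to 238). The order Mir151, Mir28a, Mir708, Mir28c was the same in both replicates. Divided by the length of the hairpin gene, counts kept this order, at 7714, 1220, 26.0 and 0.756 CPM per 100 nt in replicate 2 and 9468, 1981, 34.4 and 0.650 in replicate 1.

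Intronic miRNA genes as a class give the setting. In all, 754 of the 2202 genes lay in introns of protein-coding genes on the same strand, and 91 of them were detected, with a median of 228 CPM. They held 42.3% of assigned counts in replicate 2 and 43.3% in replicate 1. Among the 754, Mir151 ranked 11th in replicate 2 and 12th in replicate 1, Mir28a 22nd and 18th, and Mir708 78th and 77th. Mir151 and Mir28a thus lay above the median of detected intronic genes and Mir708 below it. Mir151 alone held 1.24% of intronic counts in replicate 2 and 1.49% in replicate 1.

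A list of 30 miRNA genes reported to lie within protein-coding hosts gives a closer reference, although 3 of them, Mir140, Mir93 and Mir25, were not intronic on the same strand by the rule used here. Of these, 23 were detected, and Mir126a, Mir26b, Mir139 and Mir335 led them. Mir335, in an intron of the imprinted gene Mest, stood at 2539 CPM in replicate 2 and at 3463 in replicate 1, so Mir151 stood above it and Mir28a below it in both replicates. Mir149, in an intron of Gpc1, stood at 1221 CPM in replicate 2 and at 1564 in replicate 1, close to Mir28a. At the other end, Mir208a and Mir208b, which lie within the myosin heavy chain genes Myh6 and Myh7 of heart muscle, had no count in either replicate.

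**Figure D3:**
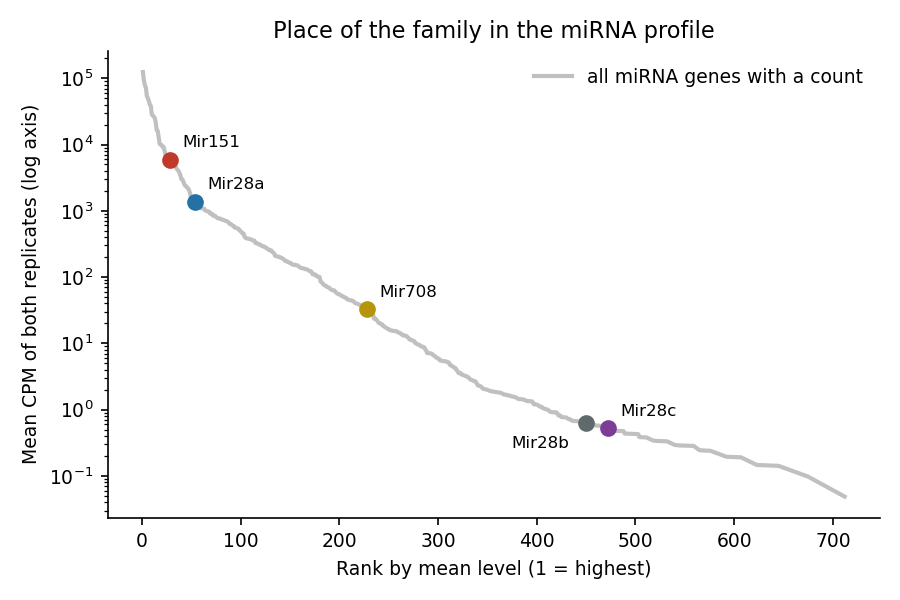
Mean CPM of both replicates on a log axis against rank for every miRNA gene with a count (grey line), with the family and Mir28b as coloured points. By mean level Mir151 is at rank 28, Mir28a at 54, Mir708 at 228 and Mir28c at 472.

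The genes nearest to each member, by distance over log2(CPM + 1) in the 2 replicates, were as follows. With 2 values a gene, nearness says only that the levels were alike. For Mir151 they were Mir30d at a distance of 0.43, Mir21a at 0.46 and Mir191 at 0.46. For Mir28a they were Mir433 at 0.19, Mir149 at 0.25 and Mir361 at 0.28. For Mir708 they were Mir32 at 0.06, Mir29b-1 at 0.10 and Mir3099 at 0.22, of which Mir29b-1 shares a stretch of 20 nt with Mir29b-2 and Mir29c and is uncertain.

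All 3 detected members were lower in replicate 2, the library with more unmapped reads, than in replicate 1, as were most genes tested. Each miRNA gene with at least 10 counts over both libraries was tested by an exact two-sided binomial test on TMM-scaled library sizes, with Benjamini-Hochberg adjustment over all 443 genes tested. This test compares 2 libraries of a single group and shows distance beyond counting noise, not an effect of any condition. Of the 443 genes, 52.8% were called in either direction and 31.6% were called lower in replicate 2, and the 3 calls among 3 tested members are to be read against these shares. No test set the family apart from the other genes. The median log2 ratio was -0.42 over the 3 tested members and -0.17 over all genes tested. A ratio below 0 was found for 263 of the 443 genes, so the 3 members had the direction of most genes.

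Mir28a lay furthest apart. Its log2 ratio of replicate 2 over replicate 1 was -0.72 (exact 95% interval from -0.77 to -0.67, adjusted p = 6.19e-183), and 20.2% of the 277 genes whose mean reached 10 CPM lay further apart in either direction. Mir151 had a log2 ratio of -0.31 (from -0.34 to -0.29, adjusted p = 9.07e-155 by the exact binomial test), and 59.9% of those genes lay further apart. Mir708 had a log2 ratio of -0.42 (from -0.75 to -0.10, adjusted p = 0.0189 by the exact binomial test), and 46.6% of those genes lay further apart. With DESeq2 size factors in place of TMM its log2 ratio was -0.35 and no longer passed (adjusted p = 0.0530). Mir28c fell below the 10 counts required for the test, and its CPM ratio of 1.16 had an exact interval from 0.111 to 7.11. Without that filter its adjusted p was 1.0 by the same exact binomial test.

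The host-gene list did not share a direction. Of its 26 tested members 9 were called higher in replicate 2, 9 were called lower and 8 were not called by the exact binomial test, with a median log2 ratio of -0.03. Over all 179 tested intronic genes, 29 were called higher in replicate 2 and 54 lower. Their median log2 ratio was -0.24, and 114 of them had a ratio below 0, so this class leaned the same way as the members.

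**Figure D4:**
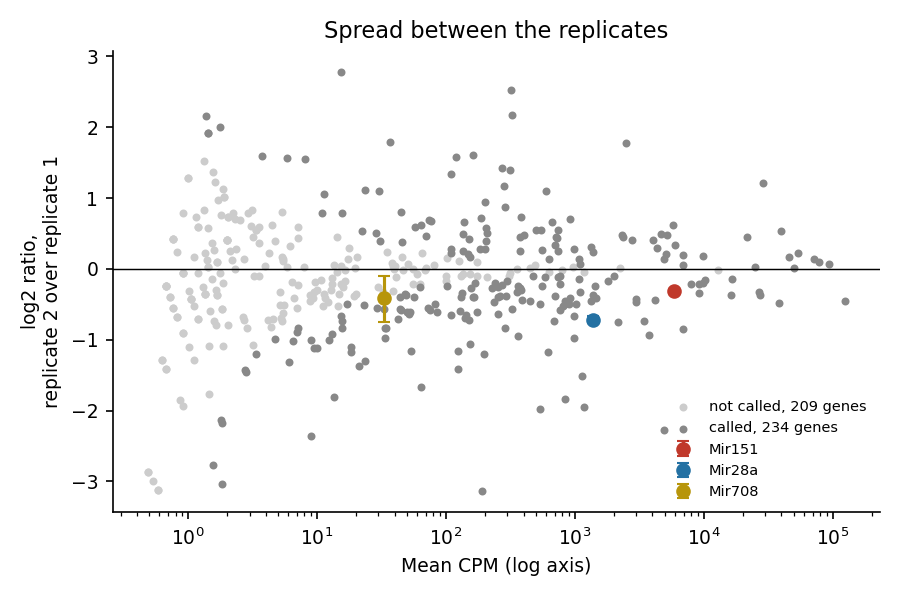
Log2 ratio of replicate 2 over replicate 1 against mean CPM on a log axis for the 443 genes tested, with genes called by the exact binomial test in dark grey and the 3 tested members in colour with exact 95% intervals. Mir28a at -0.72, Mir708 at -0.42 and Mir151 at -0.31 lie below 0, among many other genes at like distances.

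Reads on the strand opposite to a member were found at Mir708 and at no other. Mir708 had 8 such reads in replicate 2 and 45 in replicate 1, beside 100 and 385 on its own strand. Mir151, Mir28a and Mir28c had 0 in both replicates. For Mir151, a count of 0 allows a share of up to 0.0162% of its reads in replicate 2 and 0.00454% in replicate 1. For Mir28a it allows up to 0.0811% and 0.0172%.

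The opposite-strand share at Mir708 was 7.41% of its reads in replicate 2 (Wilson 95% interval from 3.80% to 13.9%) and 10.5% in replicate 1 (from 7.91% to 13.7%), and these intervals overlap. No miRNA gene and no other gene is annotated on that strand there. Among 2138 genes with no miRNA gene opposite them, Mir708 had the highest opposite-strand count in both replicates, and it held 8 of 50 such reads in replicate 2 and 45 of 199 in replicate 1. Next came Mir203 with 6 reads in replicate 2, and Mirlet7b with 20 reads in replicate 1. Among genes with at least 100 reads on their own strand, 208 in replicate 2 and 258 in replicate 1, Mir708 also had the highest opposite-strand share. Summed over those genes, Mir708 included, the share was 0.000843% in replicate 2 and 0.00139% in replicate 1. Genes with the most reads weigh most in that sum. In replicate 2 Mir708 only just met the cut, with 100 reads. Below the cut, some genes with few reads had higher shares. Mir3086 had 2 opposite-strand reads beside 20 in replicate 2, and Mir5620 had 6 beside 20 in replicate 1. In the other replicate their shares were lower than that of Mir708, with 5 beside 54 and 0 beside 8.

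A measured fact stands beside these reads. The opposite strand of the Mir708 hairpin, at the complement of bases 3 to 17 of miR-708-3p, is identical over 15 nt to positions 14 to 28 of the Mir151 hairpin, and over 13 nt to positions 18 to 30 of the Mir28a hairpin. That strand also shares a run of 13 nt with the Mir28c hairpin. These runs are shorter than the 22 bases of miR-708-3p, and runs below 20 nt were not sought over all counted hairpins. The opposite-strand reads at Mir708 amounted to 0.0433% of the Mir151 counts in replicate 2 and 0.0681% in replicate 1. Against the Mir28a counts they amounted to 0.216% and 0.257%. The sequences of the reads were not analysed here, so whether such reads came from Mir708 or from a related gene was not tested.

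**Figure D5:**
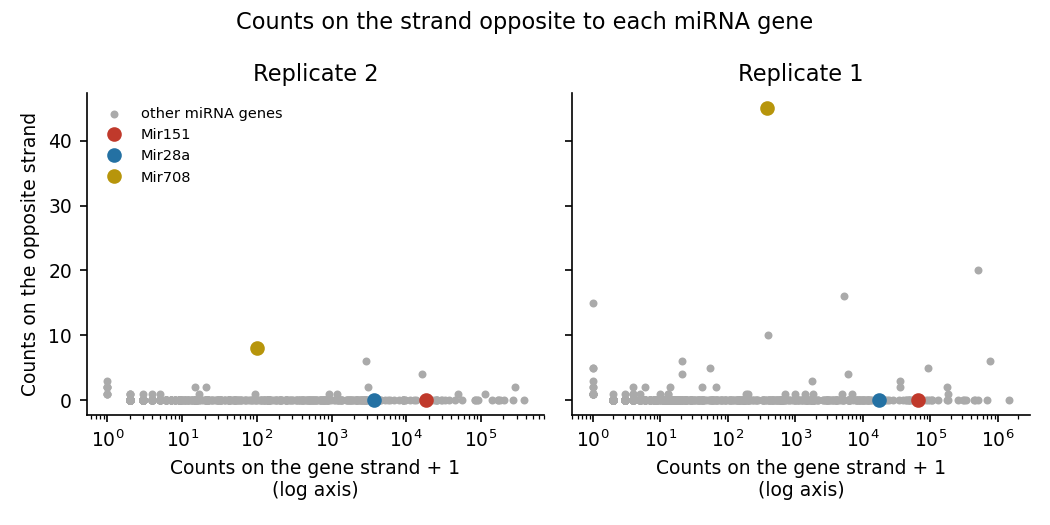
Counts on the opposite strand against counts on the gene's own strand plus 1 (log axis), for miRNA genes with no miRNA gene opposite them, replicate 2 on the left and replicate 1 on the right. Mir708 is the highest point in both panels, with 8 and 45 reads, and Mir151 and Mir28a lie at 0.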

How the data were processed

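MicroRNA sequencing libraries of adrenal gland total RNA, with inserts below 30 nt per the labels, were analysed. The authors deposited raw counts per miRNA gene, 1 table a library, on mm10 with GENCODE M21 per the accompanying description files. Neither an aligner nor a counting tool is named in the labels or those files. The tables hold counts without regard to strand, on the gene's strand (used throughout) and on the opposite strand, and this order was taken from the values. Multimapping, unmapped and no-feature lines stayed out of library sizes.

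CPM, intervals, binomial tests and shared stretches of 20 nt (either strand, GENCODE M21 hairpins) were computed in Python 3.11.15 with scipy 1.17.1, pandas 2.3.3 and numpy 2.4.6. TMM factors came from edgeR 4.0.16, and size factors for an alternative from DESeq2 1.42.0, under R 4.3.3. Log2 ratios had 0.5 counts added. Figures were drawn with matplotlib 3.10.9.

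The members and lists were chosen with earlier results of these data known. Named genes are the members, Mir28b, genes sharing a seed or a stretch of 20 nt with a member, the 3 genes nearest in level to each, rank neighbours, the 4 leading genes of the host list and marker genes of cell types. Mir140, Mir93, Mir25, Mir149, Mir208a, Mir208b, Mir203, Mirlet7b, Mir3086 and Mir5620 were named after their values were seen.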

Additional observations from a re-analysis of the deposited data

Results flagged for a closer look

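The opposite-strand column enters no level or replicate comparison above. In it Mir708 had 8 reads in replicate 2 and 45 in replicate 1, above the 3 counts that a count of 0 allows in both. Outside loci with miRNA genes on both strands, Mir203 was the sole other with more than 3 such reads in both replicates, with 6 in replicate 2 and 16 in replicate 1, or 0.208% and 0.305% of its reads. Groups of 2 are too small for an outlier test, and the series holds no second group.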

How the results depend on the processing

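No paired analysis was possible because the series holds 1 group. Under the alternatives 51 values stayed on the same side of their threshold, within the spread or, for counts, within 1.5 times, 10 moved further, 1 no longer passed and none changed direction. With DESeq2 size factors the log2 ratio of Mir708 was -0.35 and did not pass (adjusted p = 0.0530), while over its other alternatives the adjusted p ran from 0.0216 to 0.0325 and it passed. Mir151 and Mir28a passed under all 5 alternatives of scaling, filter and strand. The number of members called was 2 with DESeq2 size factors and 3 otherwise. The number of genes called ran from 206 to 231 over these alternatives. Scaled to all reads of the library in place of assigned counts, the mean level was 2474 for Mir151, 598 for Mir28a, 14.0 for Mir708 and 0.215 for Mir28c, because the denominator also holds unmapped and multimapping reads. Without regard to strand it was 41.4 CPM for Mir708, and 0.602 CPM for Mir28c. This column adds the opposite-strand reads of Mir708 and has smaller library totals, 3087250 in replicate 2 and 8993993 in replicate 1, with which Mir151, without opposite-strand reads, stood at 6669 CPM. Divided by hairpin length, the mean ratio was 5.55 for Mir151 over Mir28a, 52.2 for Mir28a over Mir708, 286 for Mir151 over Mir708 and 43.7 for Mir708 over Mir28c. Leaving out a replicate, the family share was 0.632% to 0.818%, and levels were 5246 to 6438 CPM for Mir151, 1049 to 1704 for Mir28a, 28.4 to 37.5 for Mir708 and 0.487 to 0.567 for Mir28c. The number of members detected was 3 at 1 CPM and 2 at 100 CPM. Mir28c had 7 counts in all, and tested without the low-count filter it had an adjusted p of 1.0 by the exact binomial test.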
